A study of Mus musculus with 10 samples.

Results

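Caspases are cysteine proteases that start and carry out apoptosis and that drive the inflammatory cell death called pyroptosis. The genes described here are Casp1, Casp2, Casp4, Casp6, Casp8, Casp9 and Casp12, chosen by symbol, and 6 of the 7 have a row in the count table of 19178 genes. Casp12 was not analysed here. Dendritic cells, which present antigen to T cells, were taken from mice 8 to 10 weeks old, and their polyadenylated RNA was sequenced in 5 Ptbp1-deficient and 5 wild-type (WT) libraries. The product of Ptbp1, polypyrimidine tract-binding protein 1, regulates splicing. The labels give no Cre line, no altered part of the gene, no tissue of origin, no sex and no treatment for either group, nor do they state whether the libraries of a group come from different mice. The p-values therefore measure only the spread between these libraries.

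Caspases are made as inactive precursors. Initiators such as caspase-8 and caspase-9 are activated by being brought together on large complexes, caspase-8 below death receptors and caspase-9 on the apoptosome that forms when mitochondria release cytochrome c. Inflammatory caspases, caspase-1 and mouse caspase-4 (also called caspase-11), respond to microbial signals, cut gasdermin D to open pores in the plasma membrane, and in the case of caspase-1 mature the cytokines IL-1β and IL-18. In dendritic cells the inflammatory members also shape the release of cytokines that reach T cells.

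All 6 genes encode the same catalytic signature, which is shown because it is what the members have in common as proteases. The letters CANGCNTG followed after 4 bases by GG, which lie in the codons around the catalytic cysteine, were found once in frame in the longest coding sequence of each gene (GENCODE M21, GRCm38, all on the plus strand). Below, these codons are in capitals with 15 coding bases on each side.
Casp1: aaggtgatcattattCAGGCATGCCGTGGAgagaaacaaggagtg
Casp4: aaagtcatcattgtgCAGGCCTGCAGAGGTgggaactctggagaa
Casp8: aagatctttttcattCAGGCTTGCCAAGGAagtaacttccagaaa
Casp9: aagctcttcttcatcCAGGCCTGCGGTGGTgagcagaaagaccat
Casp2: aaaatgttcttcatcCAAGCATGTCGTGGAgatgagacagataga
Casp6: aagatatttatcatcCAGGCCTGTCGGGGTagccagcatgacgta

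These 45 bases lie in exon 9 of 10 of Casp8 (chr1:58844598-58844642). In the other 5 genes they run across an exon junction, so that the genomic span also holds an intron. The spans are chr9:5303744-5304200 for Casp1 (exons 6 and 7), chr9:5324928-5327189 for Casp4 (exons 5 and 6), chr4:141807232-141811552 for Casp9 (exons 6 and 7), chr6:42276755-42279790 for Casp2 (exons 8 and 9) and chr3:129910681-129912144 for Casp6 (exons 5 and 6). Between the annotated transcripts of any pair of these genes the longest identical stretch was 10 to 16 bases, and 12 bases for Casp1 and Casp4, against reads of 150 bp.

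Levels are given in TMM-normalized CPM, counts scaled by library size. Unless another tool is named, each adjusted p comes from the quasi-likelihood test of edgeR, adjusted by Benjamini-Hochberg over the 18248 genes tested, and a gene was called at an adjusted p under 0.05. Deficient libraries held 61759378 to 92697815 gene counts and WT libraries 50516163 to 66153758. Each of the 6 caspases had at least 821 counts in every library. Ptbp1 itself stood at 74.4 ± 1.08 CPM in deficient libraries and 294 ± 21.1 CPM in WT libraries (SD, n = 5 each), and no deficient library overlapped a WT one. In the deposited FPKM values it fell less, to 28.7 ± 6.02 FPKM in deficient libraries, against 65.3 ± 2.81 FPKM in WT libraries. Its fold was 0.44 there and 0.25 in counts, and the groups did not overlap in either.

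The preparations also differed in cell type markers. The 6 listed dendritic cell markers summed to 26322 to 28132 CPM in deficient libraries and 22657 to 27811 CPM in WT libraries. Most of that sum came from Cd74 (means of 13828 CPM in deficient and 13470 CPM in WT libraries) and H2-Ab1 (8999 and 8395 CPM). Flt3 was at 558 CPM in deficient and 604 CPM in WT libraries, and Zbtb46 at 316 and 266 CPM. Macrophage markers (13 of 14 measured, lowest count 11) summed to 462 to 1101 CPM in deficient libraries and 1442 to 4099 CPM in WT libraries, and 10 of them were lower in deficient libraries. Markers of cDC1, the cross-presenting dendritic cells, summed to 2440 to 3461 CPM in deficient libraries and 1209 to 1555 CPM in WT libraries, with 6 of 7 higher in deficient libraries, and all 6 cDC2 markers were lower. Of 10 NK cell markers 7 were higher and 1 lower, of 11 B cell markers 9 were lower, of 6 plasmacytoid dendritic cell markers 4 were lower, of 6 dendritic cell markers 2 were higher, of 6 neutrophil markers 1 was lower, and 0 of 7 T cell markers were called by edgeR or by DESeq2, with 0 at an unadjusted p under 0.05. In bulk RNA a change in the mix of cells and a change in RNA per cell cannot be told apart. The part of any of these cell types in the caspase differences was not tested. Some fits took a macrophage marker score, the mean log2 CPM of these markers, as a covariate. The macrophage sums did not overlap between the groups, so such fits cannot fully separate that score from genotype. No conclusion on the mix of cells is drawn from them.

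Of the 6 caspases 5 were higher and 1 was lower in Ptbp1-deficient libraries. Called genes made up 45.0% of all genes tested, 21.9% higher and 23.1% lower, which is the background to these counts. The changes were of moderate size. The largest, that of Casp4, was 1.45-fold and exceeded in absolute log2 fold change 73.6% of all genes tested, and the smallest, that of Casp8, was 1.10-fold and exceeded 28.7%. The median log2 fold change was 0.25 over the 6 caspases and -0.03 over all genes tested. Groups did not overlap for 4 of the 6 genes (Casp1, Casp4, Casp6 and Casp9), against 33.4% of all genes tested (17.2% higher and 16.2% lower).

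**Figure D1:**
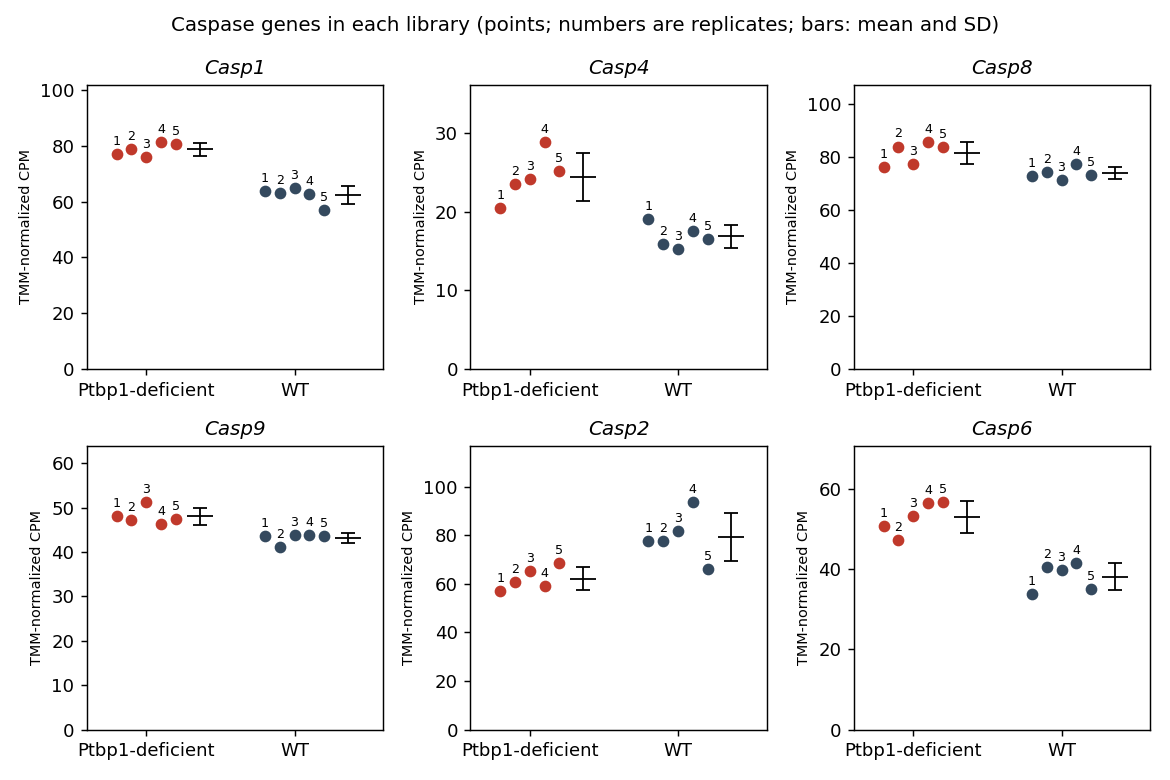
Each panel plots the TMM-normalized CPM of a caspase gene (y axis from 0) in 5 Ptbp1-deficient and 5 WT libraries, with the replicate number above each point and the mean and SD as a bar at the right of each group. Casp1, Casp4, Casp6 and Casp9 are higher in every deficient library than in every WT library, whereas Casp2 and Casp8 overlap.

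Among the inflammatory caspases, Casp1 (ENSMUSG00000025888, protein coding, chromosome 9, 5298517 to 5307265) encodes the protease of the canonical inflammasomes. Its level was 77.2, 78.8, 75.9, 81.5 and 80.6 CPM in deficient replicates 1 to 5 and 63.8, 63.2, 65.0, 62.8 and 57.0 CPM in WT replicates 1 to 5. The lowest deficient library stood above the highest WT library, and within each group the values were close together, with a coefficient of variation of 2.93% in deficient and 5.02% in WT libraries. The change was 1.26-fold (log2 fold change 0.34, SE 0.043, adjusted p = 6.9e-05).

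Casp4 (ENSMUSG00000033538, chromosome 9, 5308828 to 5336783), whose product senses bacterial lipopolysaccharide in the cytosol, begins 1562 bases after the end of Casp1 on the same strand. It was at 20.5, 23.6, 24.1, 28.9 and 25.2 CPM in deficient replicates 1 to 5 and 19.1, 15.9, 15.3, 17.6 and 16.6 CPM in WT replicates 1 to 5. The groups did not overlap, but deficient replicate 1 and WT replicate 1 came close. Casp4 rose 1.45-fold (log2 fold change 0.54, SE 0.091, adjusted p = 5.4e-04). In the FPKM values the groups overlapped, at 13.7 ± 1.58 FPKM in deficient and 10.4 ± 1.06 FPKM in WT libraries. The interferon-stimulated response element core GAAANNGAA and the gamma-activated site TTCNNNGAA were searched on both strands. The windows were the 250 bases before the RefSeq start sites of the 6 genes (GRCm38.p6). Neither was found, and 7.13% and 7.02% of the 32851 such windows hold these letters, so absence is the common case. For Casp8 the window (chr1:58802252-58802501) lies inside the gene span given below, and the bases before that span were not searched.

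Among the apoptotic initiators, Casp8 (ENSMUSG00000026029, chromosome 1, 58795374 to 58847503) acts below death receptors and also holds back necroptosis. It was at 76.4, 84.1, 77.5, 85.9 and 84.1 CPM in deficient replicates 1 to 5 and at 73.0, 74.5, 71.4, 77.6 and 73.2 CPM in WT replicates 1 to 5. Deficient replicates 1 and 3 lay below the highest WT library. The difference was 1.10-fold (log2 fold change 0.14, SE 0.044, adjusted p = 0.019). It did not pass under upper-quartile normalization (adjusted p = 0.0926), without deficient replicate 4 (adjusted p = 0.0557), without deficient replicate 5 (adjusted p = 0.0539), without WT replicate 3 (adjusted p = 0.0550) or in the FPKM values. Those averaged 28.0 ± 1.51 FPKM in deficient and 27.0 ± 1.41 FPKM in WT libraries (limma on log2(FPKM + 1), log2 fold change 0.055, adjusted p = 0.395). The annotated gene Gm37760 overlaps 3841 bases of the gene span of Casp8, introns included, on the same strand. Overlap of exons was not measured.

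Casp9 (ENSMUSG00000028914, chromosome 4, 141793612 to 141815976), the caspase of the apoptosome, was at 48.2, 47.2, 51.2, 46.2 and 47.4 CPM in deficient replicates 1 to 5 and at 43.5, 41.0, 43.8, 43.9 and 43.6 CPM in WT replicates 1 to 5. The groups did not overlap, and WT libraries lay close together, with a coefficient of variation of 2.77%. The change was 1.11-fold (log2 fold change 0.15, SE 0.039, adjusted p = 0.0075). In FPKM the groups overlapped, at 11.1 ± 0.373 FPKM in deficient libraries and 10.8 ± 1.28 FPKM in WT libraries, and Casp9 did not pass (limma on log2(FPKM + 1), log2 fold change 0.049, adjusted p = 0.595). The genes Cela2a and Ctrc each overlap 1015 bases of the gene span of Casp9, introns included, on the opposite strand. Overlap of exons was not measured, and whether the counting used strand is not stated in the labels.

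Casp2 (ENSMUSG00000029863, chromosome 6, 42264985 to 42282508) was the only one of the 6 to fall. Its product is activated on a complex with the proteins of Pidd1 and Cradd and is known for its role after DNA damage and failed cell division. It was at 57.2, 60.6, 65.1, 59.0 and 68.6 CPM in deficient replicates 1 to 5 and at 77.6, 77.8, 81.7, 93.5 and 66.0 CPM in WT replicates 1 to 5. WT replicate 5 lay below deficient replicate 5 and the other 4 WT libraries lay above all deficient ones. Casp2 had the widest spread within WT (coefficient of variation 12.4%). The deficient mean was 78.3% of the WT mean (log2 fold change -0.35, SE 0.083, adjusted p = 0.0046). In the FPKM values the groups did not overlap, at 16.1 ± 1.61 FPKM in deficient libraries and 23.2 ± 3.32 FPKM in WT libraries. Casp2 pre-mRNA is a known target of polypyrimidine tract-binding protein in human cells, where it affects the choice of an alternative exon. The 10 annotated mouse transcripts of Casp2 are merged in a gene count, so that isoforms were not measured here. The annotated small nucleolar RNA Gm25108 overlaps 78 bases of the gene span of Casp2, introns included.

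Casp6 (ENSMUSG00000027997, chromosome 3, 129901425 to 129914103) encodes an executioner that cuts nuclear lamins. It was at 50.8, 47.2, 53.2, 56.4 and 56.6 CPM in deficient replicates 1 to 5 and at 33.9, 40.4, 39.8, 41.5 and 34.9 CPM in WT replicates 1 to 5. The groups did not overlap. WT libraries split, with replicates 1 and 5 at 33.9 to 34.9 CPM and replicates 2, 3 and 4 at 39.8 to 41.5 CPM. The deficient libraries showed no such gap, running from 47.2 to 56.6 CPM, with replicates 1 and 2 the lowest. Casp6 rose 1.39-fold (log2 fold change 0.47, SE 0.070, adjusted p = 2.2e-04). Without WT replicates 1 and 5 the log2 fold change was 0.38 (adjusted p = 5.1e-04).

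Levels of different genes were compared per length, in the deposited FPKM values. In deficient libraries the order was Casp1 (46.5 ± 1.41 FPKM), Casp6 (33.6 ± 2.39 FPKM), Casp8 (28.0 ± 1.51 FPKM), Casp2 (16.1 ± 1.61 FPKM), Casp4 (13.7 ± 1.58 FPKM) and Casp9 (11.1 ± 0.373 FPKM). Only Casp2 and Casp4 overlapped their neighbour in that order. In WT libraries it was Casp1 (38.5 ± 2.14 FPKM), Casp8 (27.0 ± 1.41 FPKM), Casp6 (26.0 ± 1.99 FPKM), Casp2 (23.2 ± 3.32 FPKM), Casp9 (10.8 ± 1.28 FPKM) and Casp4 (10.4 ± 1.06 FPKM). There Casp8, Casp6 and Casp2 formed a run of overlapping ranges, and so did Casp9 and Casp4. The inflammatory gene Casp1 led in both groups, and the position of Casp6 relative to Casp8 differed, above it in deficient libraries and just below it in WT libraries, where their ranges overlapped.

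**Figure D2:**
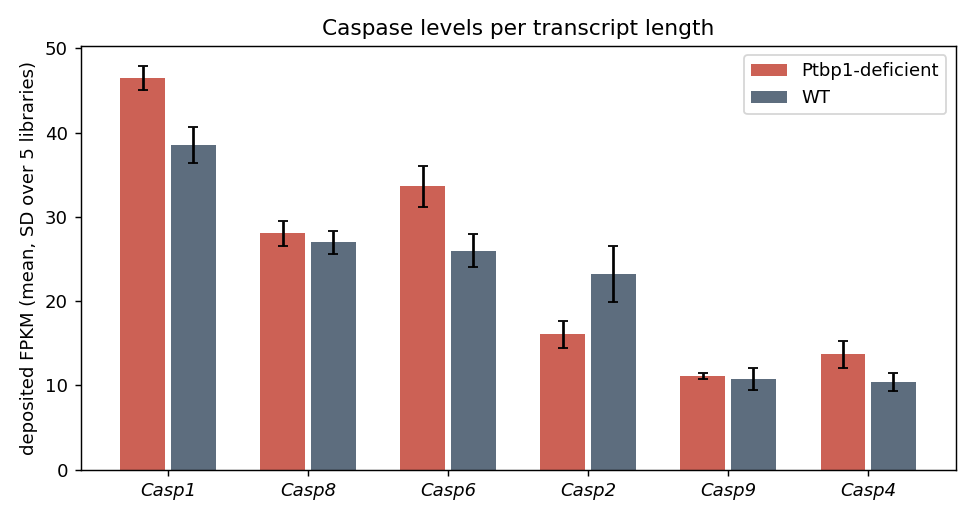
Bars give the mean of the deposited FPKM values of 5 libraries with the SD as error bar, Ptbp1-deficient left of WT for each gene, ordered by the WT mean. Casp1 is highest in both groups, at 46.5 FPKM in deficient and 38.5 FPKM in WT libraries, and Casp2 alone has the taller WT bar.

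The direction of each caspase was the same in all 25 alternative settings, and 4 of the 6 genes (Casp1, Casp2, Casp4 and Casp6) passed the test in all of them. With macrophage marker score as a covariate the log2 fold changes were 0.31 for Casp1, 0.72 for Casp4, 0.49 for Casp6, 0.17 for Casp9 and -0.40 for Casp2, all past the threshold, and 0.15 for Casp8 (adjusted p = 0.0838). So fitted, 4 rose and 1 fell, against 17.4% of genes called higher and 17.8% lower (35.2% in all). Without WT replicates 1 and 5 also 4 rose and 1 fell, Casp8 being lost, against 21.7% higher and 22.3% lower (44.0%). Without deficient replicates 1 and 2, 5 rose and 1 fell, against 19.3% higher and 20.6% lower (39.9%). In the FPKM values 3 caspases rose and Casp2 fell, against 20.3% higher and 27.2% lower (47.6%) of the 11968 genes in that table. Groups did not overlap in FPKM for 3 of the 6 (Casp1, Casp2 and Casp6), against 35.0% of genes. Log2 fold changes of Casp1, Casp4 and Casp6 were smaller there than in counts, and that of Casp2 was larger in size, -0.50 in FPKM and -0.35 in counts.

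**Figure D3:**
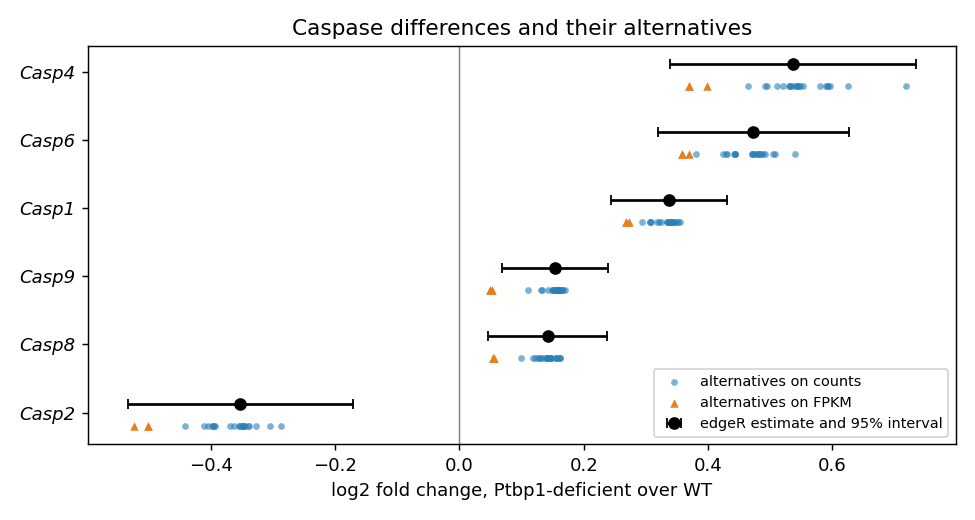
Black points are edgeR's log2 fold changes of Ptbp1-deficient over WT libraries with 95% intervals, and the small points beneath are the same quantity under each alternative on counts (circles) or on deposited FPKM values (triangles). Casp4, Casp6 and Casp1 lie at 0.27 or higher in these settings, Casp9 and Casp8 come near 0 in the FPKM settings, and Casp2 lies at -0.29 or lower.

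For each caspase the genes with the most similar profile were found by the root-mean-square difference of log2 CPM over the 10 libraries, each gene centred on its own mean, among 9601 protein-coding genes. Those nearest to Casp1 were Clcn7, Sharpin and Pola2 (differences of 0.037, 0.039 and 0.041). Nearest to Casp4 were Prkx, Tmem106a and Tnfrsf14 (0.076, 0.078 and 0.079), to Casp6 Atox1, Plekha5 and Ube2e1 (0.045, 0.045 and 0.046), and to Casp2 Gsto1, Trim32 and Zfp637 (0.072, 0.075 and 0.081). The profiles of Casp8 and Casp9 were nearest to Ergic2, Ercc3 and Ccdc6 (0.035, 0.044 and 0.044) and to Slc25a44, Usp5 and Arl2bp (0.031, 0.034 and 0.036). Within the family Casp8 and Casp9 were the most alike (0.089), and Casp2 and Casp4 the least (0.472). Profiles were centred but not scaled, so this likeness in part restates the fold changes between the groups given above.

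In the lists of genes around the caspases, the share of genes called is read against 45.0% of all genes tested. Of 15 inflammasome sensors and adaptors tested 2 were higher and 5 lower, 46.7% called and near that background, with a median log2 fold change of -0.09. Pycard, whose product ASC joins sensors to caspase-1, rose, at 37.4 ± 1.24 CPM in deficient libraries and 27.8 ± 1.37 CPM in WT libraries (log2 fold change 0.43, SE 0.046, adjusted p = 2.0e-05). The other gene called higher, Nek7, a partner of NLRP3, was at 105 ± 2.32 CPM in deficient and 99.2 ± 1.38 CPM in WT libraries (adjusted p = 0.048). It missed the threshold without any single library other than WT replicate 1 (adjusted p of 0.0539 to 0.121) and had the opposite sign in the FPKM values. The flagellin receptor genes Naip6 (80.5 ± 4.44 CPM in deficient and 118 ± 9.47 CPM in WT libraries, adjusted p = 2.3e-05) and Naip5 (75.4 ± 4.45 CPM in deficient and 99.5 ± 8.82 CPM in WT libraries, adjusted p = 3.7e-04) fell. These are near copies of each other, so that their separate counts are uncertain. Mefv, which encodes pyrin, fell to 105 ± 23.9 CPM in deficient libraries, against 215 ± 66.1 CPM in WT libraries (adjusted p = 0.0026), with overlapping groups. With the macrophage covariate its log2 fold change was -1.74, against -1.03, and that of Nlrc4, the partner of the Naip receptors, -0.82, against -0.48. The DNA sensor gene Aim2 (log2 fold change -0.24, adjusted p = 0.0039) and Nlrc4 (-0.48, adjusted p = 0.0055) also fell. Nlrp3 was at 139 ± 17.0 CPM in deficient and 148 ± 17.6 CPM in WT libraries (adjusted p = 0.44). In the FPKM values Nlrp3 was lower (limma on log2(FPKM + 1), log2 fold change -0.27, adjusted p = 0.0288).

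Among substrates and pore genes of inflammatory caspases, 1 of 7 was higher and 3 lower, 57.1% called against 45.0% of all genes. Gsdmd, the gasdermin that caspase-1 and caspase-4 cut, rose to 153 ± 6.39 CPM in deficient libraries, against 128 ± 4.68 CPM in WT libraries (1.20-fold, log2 fold change 0.26, adjusted p = 3.6e-04), and by 0.15 in the FPKM values. Il18 was at 12.5, 11.8, 15.2, 16.7 and 15.6 CPM in deficient replicates 1 to 5 and at 33.9, 30.6, 28.1, 27.0 and 39.7 CPM in WT replicates 1 to 5. All deficient libraries were below all WT libraries (log2 fold change -1.15, SE 0.12, adjusted p = 2.1e-05). With the macrophage covariate the log2 fold change of Il18 was -0.74 (adjusted p = 2.5e-05). Il1b stood at 130 ± 22.9 CPM in deficient and 144 ± 17.0 CPM in WT libraries (adjusted p = 0.32), and WT replicate 5 stood apart at 174 CPM. Ninj1, whose product ruptures the plasma membrane in dying cells, was at 13.2 ± 3.42 CPM in deficient and 24.8 ± 9.57 CPM in WT libraries (adjusted p = 0.010), and Il1a at 1.09 ± 0.642 CPM in deficient and 2.71 ± 1.37 CPM in WT libraries (adjusted p = 0.038). With macrophage marker score as a covariate neither passed, and the log2 fold changes were -0.04 for Ninj1, against -0.91, and 0.16 for Il1a, against -1.29. Ninj1 was at -0.51 without WT replicates 1 and 5 and at -0.58 in limma-voom. Ninj1 also missed the threshold without deficient replicates 1 and 2 (adjusted p = 0.0691), and Il1a without deficient replicate 1, 2 or 3 or WT replicate 1 or 5 (adjusted p of 0.0585 to 0.0813), with 1 lower gene left in the list without deficient replicates 1 and 2.

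Of 17 genes of death receptor complexes, the platform of caspase-8, 2 were higher and 4 lower, 35.3% called and below the 45.0% of all genes. Fadd, the adaptor that binds caspase-8, was at 17.0 ± 0.731 CPM in deficient and 16.3 ± 0.888 CPM in WT libraries (adjusted p = 0.38). Zbp1, a nucleic acid sensor that can engage RIPK3 and caspase-8, rose to 195 ± 37.0 CPM in deficient libraries, against 37.6 ± 3.02 CPM in WT libraries (5.17-fold, log2 fold change 2.37, SE 0.11, adjusted p = 1.4e-07). Sharpin, a subunit of the linear ubiquitin ligase that restrains cell death, rose 1.26-fold (log2 fold change 0.34, adjusted p = 3.2e-05), and by 0.16 in FPKM. The kinase gene Ripk1 (65.2 ± 2.78 CPM in deficient and 76.7 ± 1.27 CPM in WT libraries, adjusted p = 3.8e-04) and the adaptor gene Traf2 (log2 fold change -0.29, adjusted p = 0.0011) fell, as did the receptor genes Fas (-0.45, adjusted p = 0.0041) and Tnfrsf25 (-0.76, adjusted p = 0.0065). In FPKM the log2 fold change of Ripk1 was -0.37, against -0.24 in counts.

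Of 6 genes of the apoptosome and the mitochondrial cell death pathway, 2 were higher and 2 lower, 66.7% called against 45.0% of all genes. Cycs, which encodes cytochrome c, rose 1.75-fold, at 118 ± 12.8 CPM in deficient and 67.4 ± 9.04 CPM in WT libraries (adjusted p = 5.2e-05), and Aifm1 rose 1.18-fold (adjusted p = 0.0013). Genes of antagonists of the caspase inhibitors fell, Htra2 to 80.0 ± 3.99 CPM in deficient libraries, against 103 ± 7.70 CPM in WT libraries (adjusted p = 3.1e-04), and Diablo with a log2 fold change of -0.16 (adjusted p = 0.035). Diablo missed the threshold without deficient replicate 2, 3 or 4 or WT replicate 1, 3 or 4 (adjusted p of 0.0589 to 0.0875), which leaves 1 lower gene, and in FPKM, at a log2 fold change of -0.09 (adjusted p = 0.205). Apaf1, the scaffold of the apoptosome, was at 118 ± 2.64 CPM in deficient and 111 ± 2.70 CPM in WT libraries (adjusted p = 0.057). Apaf1 lay near the threshold, and passed in DESeq2 (adjusted p = 0.0194), under RLE normalization, under both other filters and without deficient replicate 4 (adjusted p = 0.0491) or WT replicate 1 (adjusted p = 0.0426), but had the opposite sign in FPKM. The 2 partners of caspase-2 moved in opposite directions, Pidd1 with 21.4 ± 1.11 CPM in deficient and 17.1 ± 1.13 CPM in WT libraries (log2 fold change 0.32, adjusted p = 0.0014) and Cradd with 4.45 ± 0.305 CPM in deficient and 6.15 ± 0.461 CPM in WT libraries (log2 fold change -0.47, adjusted p = 0.0012). With macrophage marker score as a covariate Pidd1 did not pass (log2 fold change 0.19, adjusted p = 0.0652), nor in the FPKM values (0.13, adjusted p = 0.148).

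Among 8 genes tested in a list of caspase inhibitors and related proteins 3 were higher and 2 lower, 62.5% called against 45.0% of all genes. Birc5, which encodes survivin, a member of the inhibitor family that works mainly in mitosis, rose 2.48-fold, at 50.5 ± 5.81 CPM in deficient and 20.4 ± 2.16 CPM in WT libraries (adjusted p = 9.8e-07). Serpinb9, whose product blocks granzyme B, rose 2.39-fold, at 129 ± 26.1 CPM in deficient and 54.0 ± 7.02 CPM in WT libraries (adjusted p = 1.8e-05), and Card19 rose by 0.16 on the log2 scale (adjusted p = 0.0063). The ubiquitin ligase genes Birc3 (282 ± 10.9 CPM in deficient and 357 ± 25.2 CPM in WT libraries, adjusted p = 3.3e-04) and Birc2 (133 ± 6.43 CPM in deficient and 160 ± 10.4 CPM in WT libraries, adjusted p = 0.0017) fell. Xiap, the direct inhibitor of caspase-9, was at 149 ± 5.76 CPM in deficient and 157 ± 6.74 CPM in WT libraries (adjusted p = 0.15). It passed as lower under upper-quartile normalization (adjusted p = 0.0492) and with the macrophage covariate (adjusted p = 0.0305). Cflar, which encodes the caspase-8 regulator c-FLIP, was at 197 ± 13.1 CPM in deficient and 197 ± 19.6 CPM in WT libraries (adjusted p = 0.96, 95% interval of the log2 fold change -0.15 to 0.16).

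Of 13 apoptotic substrates and effectors 4 were higher and 2 lower, 46.2% called and near the 45.0% of all genes. Bid, which caspase-8 cuts to reach mitochondria, rose 1.37-fold, at 52.9 ± 1.03 CPM in deficient and 38.6 ± 2.74 CPM in WT libraries (adjusted p = 2.2e-05). The lamin genes Lmnb1 (242 ± 7.61 CPM in deficient and 147 ± 23.3 CPM in WT libraries, adjusted p = 1.2e-04) and Lmna (7.10 ± 1.78 CPM in deficient and 3.84 ± 0.804 CPM in WT libraries, adjusted p = 0.0022) rose, as did Gas2 (log2 fold change 0.89, adjusted p = 0.0062). The spectrin gene Sptan1 (log2 fold change -0.17, adjusted p = 0.0047) and Acin1 (-0.18, adjusted p = 0.0048) fell. In FPKM their log2 fold changes were -0.32 and -0.42, and that of Lmna was 0.55, against 0.89 in counts. Serpinb9 and Cycs have close relatives or copies in the genome, so that their counts are uncertain. With macrophage marker score as a covariate, Birc2 (adjusted p = 0.0564), Card19 (0.139) and Fas (0.161) did not pass. Over these 7 lists 15 genes were higher, 19 lower and 34 neither, of 68 tested, so that 34 were called, against 45.0% of all genes.

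**Figure D4:**
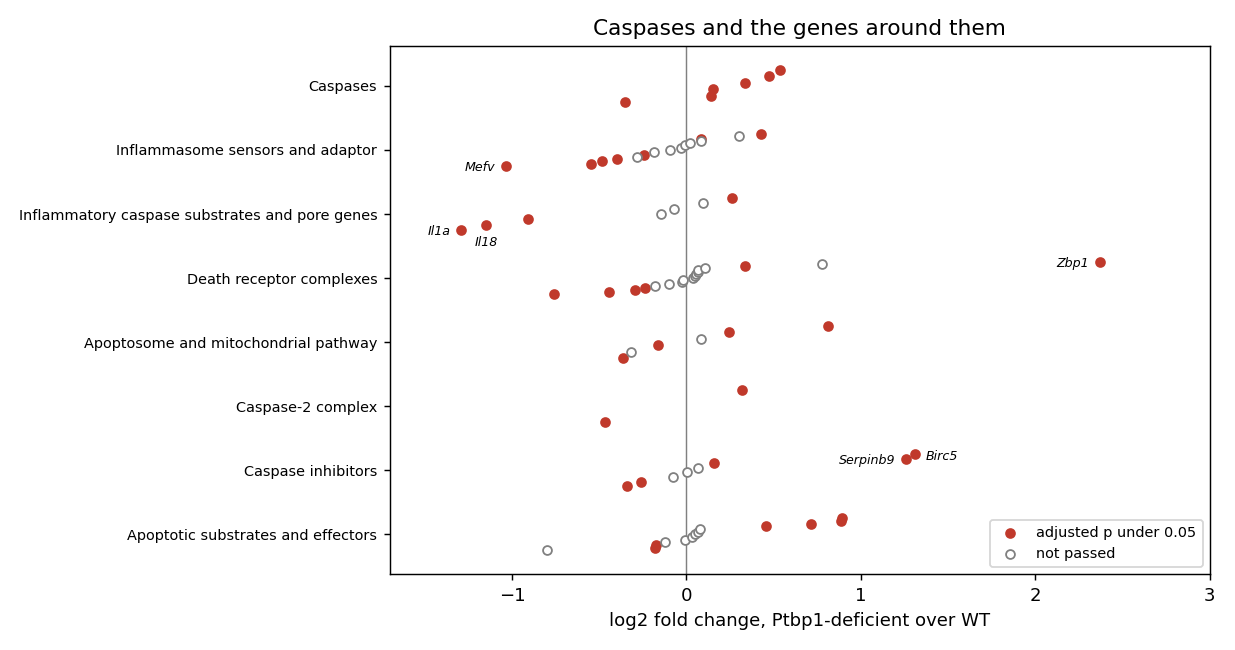
Each point is a gene, placed by its log2 fold change of Ptbp1-deficient over WT libraries (x axis) in the row of its list, filled where the adjusted p was under 0.05 and open otherwise. The caspases lie between -0.35 and 0.54 with 5 of 6 to the right of 0, while the lists around them spread to both sides, from Il1a at -1.29 to Zbp1 at 2.37.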

How the data were processed

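The authors deposited a table of raw counts per gene and a table of FPKM values. HISAT2, StringTie and DESeq2 are named without versions or roles in the submitters' processing notes, which give the human build GRCh38 although the deposited identifiers belong to the mouse. No source used here names the tool that counted reads or says whether it used strand. RNA was extracted with TRIzol and sequenced as paired 150 bp reads, per the labels' protocols. The deposited counts are at least 2 in every gene row, and the deposited FPKM values at least 1.00. Rows for reads outside genes, ambiguous, not unique, of low quality or not aligned were kept out of library sizes and tests; genes held 69.4% to 74.1% of all counts.

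Symbols and coordinates came from GENCODE M21 (GRCm38), which matched 19035 of 19178 identifiers. edgeR 4.0.16 (R 4.3.3, limma 3.58.1) filtered genes with filterByExpr, leaving 18248, applied TMM and tested genotype as the only term. SEs were derived from the F statistic. Fold changes of FPKM are on the log2(FPKM + 1) scale, which understates changes of low genes.

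The members and gene lists were chosen with earlier results of these data known. Named genes were the 6 caspases, Ptbp1, from each list the called genes of lowest adjusted p, at most 4 (its most abundant gene where nothing was called), and the 3 genes with the profile closest to each called caspase. Aim2, Nlrc4, Nek7, Fas, Tnfrsf25, Card19, Gas2, Acin1, Nlrp3, Il1b, Fadd, Apaf1, Xiap and Cflar were named after their values were seen. Other caspase genes are not reported here. Alternatives changed the normalization (RLE, upper quartile), the tool (DESeq2 1.42.0, voom with quality weights), the filter (none, or 1 CPM in 5 libraries), the unit (limma on log2 FPKM, with a pseudocount of 1 or 0.1 or a mean FPKM of at least 5), the threshold (0.01), the covariates (replicate block, macrophage marker score, share of counts outside genes) or the libraries left out.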

Additional observations from a re-analysis of the deposited data

Results flagged for a closer look

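In 94 groups of 5 libraries, one per genotype for each named caspase or pathway gene and for the summed CPM of the caspases, a library was marked where its gap to the nearest other library exceeded 0.71 of the group's range. Chance alone marks about 1 in 20 groups, and 6 were marked. Casp1 was lowest in WT replicate 5, at 57.0 CPM, with the other WT libraries at 62.8 to 65.0 CPM; without that library the log2 fold change of Casp1 was 0.31. Casp9 was lowest in WT replicate 2, at 41.0 CPM, with the others at 43.5 to 43.9 CPM. Zbp1 reached 258 CPM in deficient replicate 4, with the other deficient libraries at 165 to 189 CPM. That library also had the highest level of Casp1, Casp4 and Casp8, but not of Casp2, Casp6 or Casp9. A link between these levels was not tested. Lmnb1 was at 106 CPM in WT replicate 1, with the others at 153 to 163 CPM. Gas2 was at 2.10 CPM in deficient replicate 3, with the others at 0.998 to 1.30 CPM. Il1b was at 174 CPM in WT replicate 5, with the other WT libraries at 133 to 141 CPM.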

How the results depend on the processing

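Over 25 alternatives Casp1 (log2 fold change 0.27 to 0.35), Casp2 (-0.52 to -0.29), Casp4 (0.37 to 0.72) and Casp6 (0.36 to 0.54) kept their direction and passed the test. The stricter threshold of 0.01 left the fold changes as they were. Casp8 kept its direction and missed the threshold in 10, with log2 fold changes of 0.098 under upper-quartile normalization, 0.055, 0.056 and 0.055 in the 3 FPKM settings (pseudocounts of 1 and 0.1, and a mean of at least 5), 0.13 without WT replicates 1 and 5, 0.15 with the macrophage marker score, and 0.14 at an adjusted p under 0.01; leaving out 1 library gave 0.12 to 0.16. Casp9 missed it in the FPKM settings (0.049, 0.053 and 0.049). The count of caspases called higher was 3 in each FPKM setting and 4 or 5 elsewhere, with 4 to 5 on leaving out 1 library. The cause of these losses was not tested. Among the other genes, Il1a turned to 0.16 with the macrophage marker score, and Nek7 to -0.65, -0.70 and -0.65 in the FPKM settings. Of genes not called, Il1b turned to 0.12 with that score, Apaf1 to -0.037, -0.040 and -0.037 in the FPKM settings, Fadd to -0.00096 in both FPKM settings without a floor, and Cflar to -0.040 under upper-quartile normalization, with -0.033 to 0.066 on leaving out 1 library. With the replicate number as a block, same-numbered libraries sharing only a number (correlation of deviations -0.10 to 0.11), the log2 fold changes of the 6 caspases were 0.34 (Casp1), -0.35 (Casp2), 0.53 (Casp4), 0.47 (Casp6), 0.14 (Casp8) and 0.15 (Casp9), all past the threshold, while Diablo (adjusted p = 0.0882) and Nek7 (0.112) missed it. Of all genes, 3456 were called higher and 4845 lower under upper-quartile normalization, against 3998 and 4216. The caspases had at least 821 counts in each library.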
